A study of Drosophila melanogaster with 4 samples.

Results

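The genes examined here make chitin, bind it, or modify and digest it. They were taken by symbol: kkv, mmy, knk, serp, verm, Gasp and nes, together with every gene named Cht followed by a digit, Cda, ChLD, obst-, Peritrophin or Idgf that has a probe set of its own on the Affymetrix Drosophila genome array. This gave 47 probe sets of 36 genes, where the array names 10843 genes by a probe set of their own and holds 13966 probe sets beside the controls of its maker. The genes rtv, Cht12 and obst-I have no probe set that carries their name alone and were not analysed here. One further probe set carries Idgf4 together with another gene and was left out.

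RNA was hybridized to 4 arrays, 2 for Dop1R2 knockdown pupae and 2 for controls, and each array received RNA from a pool of 10 to 20 whole early (pale) pupae raised at 29 °C. Dop1R2 is a dopamine receptor of the D1-like class. Knockdown pupae carried 1 copy of a hairpin transgene against it and 1 copy of a Gal4 driver under the promoter of actin 5C, which is active in all tissues (UAS-dsDop1R2/+;Act5C-Gal4/+). Control pupae were the progeny of w1118 flies and carried the same driver without the hairpin (w1118;Act5C-Gal4/+), so by these genotypes both groups express Gal4. A legend of the study describes the controls differently, as siblings with the hairpin and a TM6B balancer but no driver. Which of its hairpin insertions was used on the arrays is not stated in the sources used here. The comparison asks which transcripts differ in level at the start of metamorphosis when the receptor is silenced. Dop1R2 has no probe set named for it alone, and the knockdown itself was not checked on these arrays.

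Chitin is a polymer of N-acetylglucosamine and forms the scaffold of the insect cuticle, of the lining of the tracheal tubes and of the peritrophic matrix in the gut. At the start of metamorphosis the larval cuticle hardens into the puparium, the epidermis separates from it, and a new pupal cuticle is laid down beneath. Chitin synthase in the apical membrane makes the fibres, secreted deacetylases and binding proteins set their texture and order, and chitinases digest the old layer.

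None of the 39 tested probe sets of these genes passed in either direction, and the largest differences were higher signals of the chitinases Cht8 and Cht9 and the deacetylases serp and Cda4 and lower signals of the chitinase Cht10 and the deacetylase ChLD3 in the knockdown. Microarray Suite gave each probe set 1 signal per array, an intensity on a linear scale. Probe sets that reached the 40th percentile of their array on 2 or more of the 4 arrays, 8749 in all, were compared on the log2 scale with limma, whose standard error (SE) and adjusted p are given throughout. The smallest adjusted p among the chitin genes was 0.0926 (serp), against a threshold of 0.05. Over all tested probe sets, 121 (1.38%) passed as higher in the knockdown and 9 (0.103%) as lower. The smallest fold among those that passed was 2.39, and 2 chitin probe sets, those of Cht8 and Cht9, differed by more than that. Cht9 was tested through its knockdown arrays alone, since both controls were below the 40th percentile.

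At unadjusted p under 0.05, 7 of the 39 probe sets were higher and 2 were lower, where the shares over all tested probe sets were 7.53% and 5.51%. The 7 belong to 5 genes (serp, verm, Cda4, Cht8 and Cht9) and the 2 to 1 gene (Cht10). Both knockdown arrays lay above both controls for 15 of the 39, against a share of 21.1% over all tested probe sets, and below both for 6, against 24.0%. The 15 come from 11 genes and the 6 from 4, so these counts are not counts of independent genes. The gene obst-E enters both, through different probe sets. Cht9 is among the 7 and among the 15, though it was tested through its knockdown arrays alone. The median log2 fold change of the 39 was 0.13, against -0.04 over all tested probe sets. Values ran from -0.97 (Cht10) to 2.69 (Cht8). The 95% interval lay within a 2-fold difference in both directions for 18 probe sets and reached past it for 21.

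**Figure D1:**
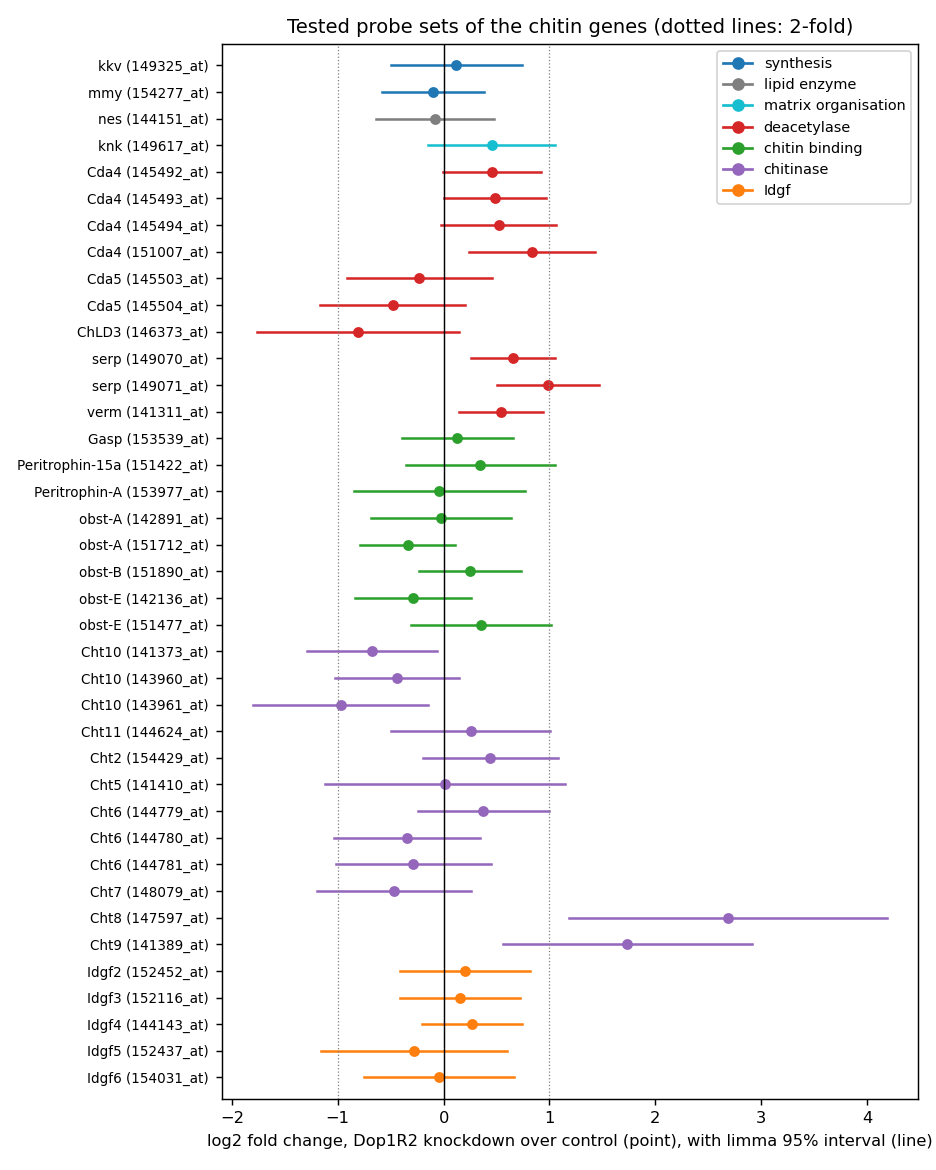
Log2 fold change of knockdown over control (horizontal axis) for each of the 39 tested chitin probe sets (rows, grouped and coloured by role), as a point with its 95% limma interval as a line. The intervals of Cht8, Cht9, both serp probe sets, verm and Cda4 on 151007_at and 145493_at lie above 0, those of Cht10 on 143961_at and 141373_at lie below 0, and those of the probe sets of the synthesis genes kkv and mmy span 0.

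**Figure D2:**
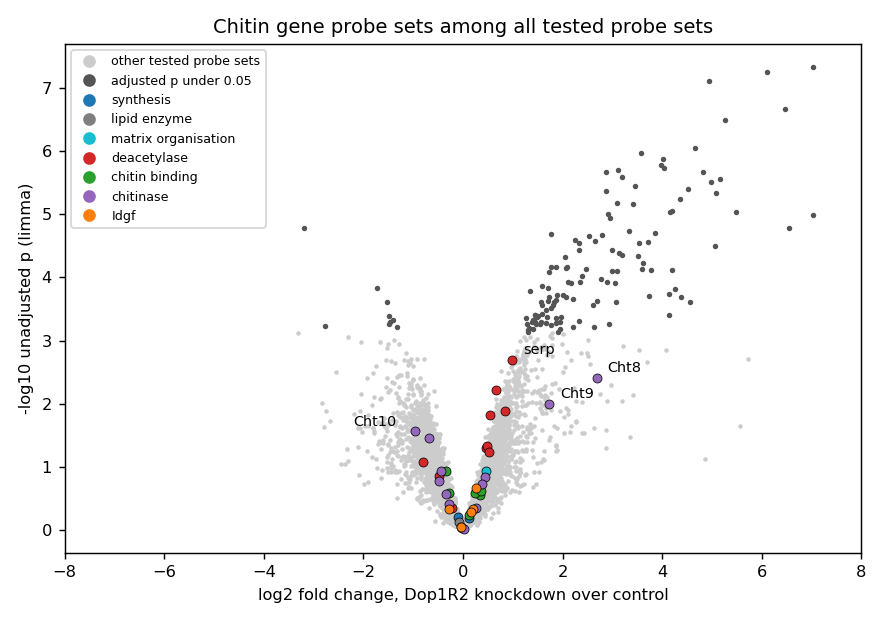
Log2 fold change (horizontal axis) and -log10 of the unadjusted limma p (vertical axis) for the 8749 tested probe sets, one point each, with the chitin probe sets coloured by role and the probe sets that passed in dark grey. No coloured point lies among the dark grey ones, and Cht8 and Cht9 stand farthest to the right among the coloured points.

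For kkv and mmy, which make chitin and its direct substrate, the signals of the groups overlapped. The chitin synthase of cuticle and tracheae, kkv (krotzkopf verkehrt, probe set 149325_at), had signals of 179.7 and 263.0 in the knockdown and 205.4 and 194.3 in controls. The groups overlapped, since the control signals lay between those of the knockdown arrays. Its log2 fold change was 0.12 (95% interval -0.50 to 0.74, adjusted p = 0.882), an interval that leaves out a 2-fold difference. The gene mmy (mummy, 154277_at) encodes the pyrophosphorylase that makes UDP-N-acetylglucosamine, the substrate of the synthase. It had signals of 545.8 and 615.0 against 633.8 and 610.4, which overlapped, and a log2 fold change of -0.10 (95% interval -0.58 to 0.38, adjusted p = 0.869). The rule also took nes (nessy, 144151_at), an acyltransferase of membrane lipids with no known part in making chitin. Its signals of 97.8 and 78.9 against 93.8 and 91.8 overlapped too (log2 fold change -0.08, adjusted p = 0.917).

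The knickkopf gene knk (149617_at) encodes a protein that orders new chitin fibres and shields them from chitinases. Its signals were 313.2 and 251.5 in the knockdown and 235.7 and 178.3 in controls. Both knockdown arrays lay above both controls, but by a small margin relative to the spread within each group (log2 fold change 0.45, 95% interval -0.15 to 1.05, adjusted p = 0.488).

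Among the deacetylase family, 3 genes were brighter on both knockdown arrays and the others were not. These secreted enzymes trim acetyl groups from chitin. The serpentine gene serp has a pair of probe sets, and in tracheae its product and that of vermiform (verm) limit the length of the tubes. Probe set 149071_at of serp had signals of 1005 and 1032 in the knockdown and 470.5 and 562.0 in controls, a 1.98-fold difference (log2 fold change 0.99, SE 0.21, adjusted p = 0.0926). The groups were far apart compared with the 1.03-fold and 1.19-fold differences between arrays of a group. Probe set 149070_at of serp read 3626 and 3705 against 2516 and 2149, a 1.58-fold difference (log2 fold change 0.66, SE 0.17, adjusted p = 0.177). The neighbouring gene verm (141311_at) read 3346 and 3828 against 2573 and 2349, a 1.46-fold difference (log2 fold change 0.54, SE 0.17, adjusted p = 0.255). Neither pair of groups overlapped. In the reference annotation no protein-coding gene lies between verm and serp on chromosome arm 3L.

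Cda4, another deacetylase of the family, has 4 probe sets, and on each of them both knockdown arrays lay above both controls. The log2 fold changes were 0.46, 0.49, 0.52 and 0.84. Probe set 151007_at, with the largest of these, read 245.0 and 289.5 in the knockdown and 129.0 and 172.5 in controls (SE 0.25, adjusted p = 0.246). Probe set 145492_at read 1105 and 1139 against 764.4 and 873.0 (adjusted p = 0.386). Probe set 145493_at read 1079 and 1106 against 707.0 and 860.3 (adjusted p = 0.376). Probe set 145494_at read 507.0 and 521.1 against 312.9 and 411.0 (adjusted p = 0.395).

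The tested probe sets of the remaining deacetylases had log2 fold changes below 0. ChLD3 (146373_at) read 212.0 and 88.9 in the knockdown and 254.3 and 227.3 in controls (log2 fold change -0.81, SE 0.40, adjusted p = 0.444). The groups did not overlap, but the knockdown arrays differed 2.38-fold from each other. Without knockdown replicate 2 the log2 fold change of ChLD3 was -0.18. Cda5 has a pair of probe sets. Probe set 145503_at read 566.9 and 339.0 against 479.2 and 551.5 (log2 fold change -0.23, adjusted p = 0.772), and 145504_at read 115.5 and 84.6 against 114.4 and 166.1 (log2 fold change -0.48, adjusted p = 0.517). The groups overlapped on both. Cda9 (147352_at) had signals from 2.73 to 6.90, under the 20th percentile of every array, and was not tested. Over the 10 tested probe sets of the family, 7 lay above 0 and 3 below, with a median log2 fold change of 0.50. The 7 are those of 3 genes (Cda4, serp and verm), and Cda4 enters the count and the median 4 times. Over all tested probe sets, 4032 of 8749 lay above 0. Both knockdown arrays lay above both controls on each of the 7, where the share over all tested probe sets was 21.1%.

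**Figure D3:**
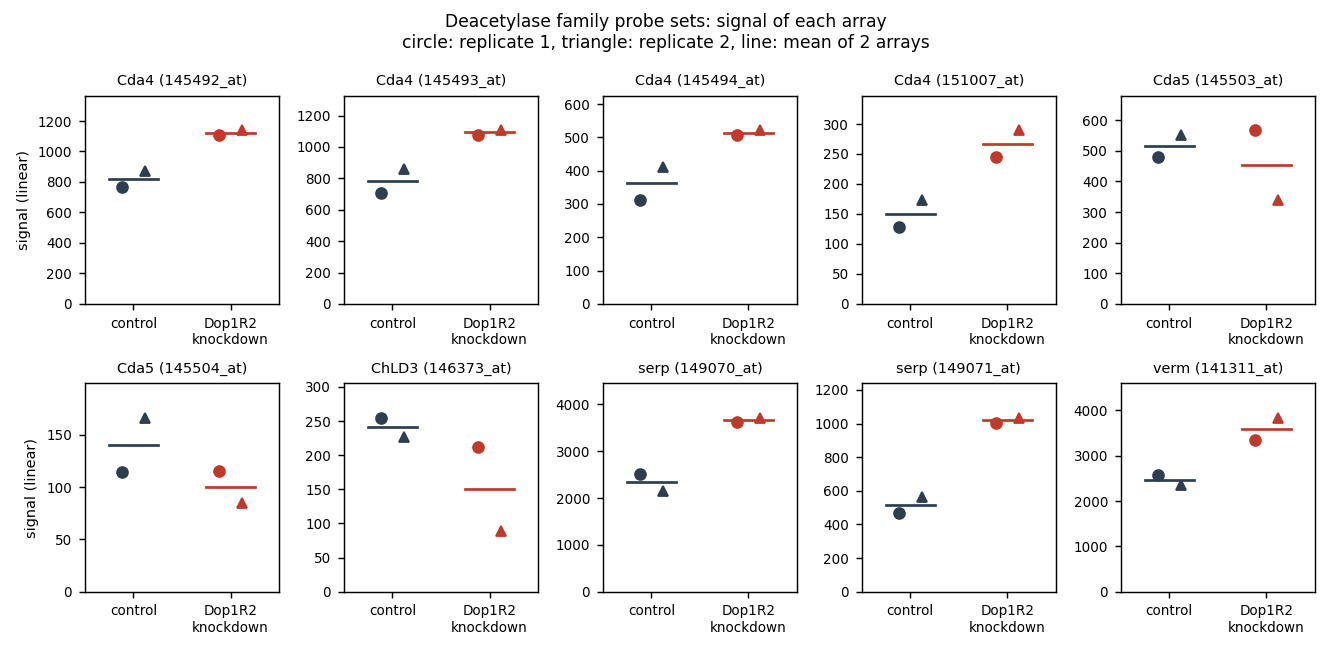
Linear signal (vertical axis, own scale from 0 in each panel) of each array for the 10 tested deacetylase probe sets, with controls at left and knockdown at right, circles for replicate 1, triangles for replicate 2 and a line at the mean of 2 arrays. The knockdown signals of serp, verm and Cda4 lie above both controls, and those of Cda5 overlap them.

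With any 1 array left out, the log2 fold changes of serp, verm and Cda4 stayed above 0. That sign was fixed beforehand, since both knockdown arrays lay above both controls on each of their probe sets. Only the size of the difference could change. The span was 0.86 to 1.11 for serp on 149071_at, 0.54 to 0.77 for serp on 149070_at, 0.44 to 0.64 for verm, and 0.63 to 1.05 for Cda4 on 151007_at. Their calls depended on the array left out. Without knockdown replicate 1, serp had an adjusted p of 0.0138 (149071_at) and 0.0208 (149070_at) and verm one of 0.0293. Without knockdown replicate 2, only 149071_at of serp passed among these (adjusted p = 0.0376). In both of these fits limma's prior degrees of freedom were infinite, so the spread of a probe set's own arrays did not enter its p. With control replicate 1 or 2 left out, serp on 149071_at had adjusted p of 0.584 and 0.206.

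The genes of chitin-binding proteins had log2 fold changes between -0.34 and 0.35, and none passed. They include Gasp, which lines the tracheae, the obstructor family (obst), which orders cuticle chitin, and the peritrophins, first known from the gut matrix of insects. Of 8 tested probe sets of 6 such genes, 4 lay above 0 and 4 below, with a median log2 fold change of 0.05. Gasp (153539_at) read 1058 and 824.1 against 930.9 and 784.8, and the groups overlapped (log2 fold change 0.13, adjusted p = 0.848). The scaffold protein gene obst-A read 2626 and 2027 in the knockdown and 2839 and 3001 in controls on 151712_at (log2 fold change -0.34, adjusted p = 0.488). Its other probe set, 142891_at, had signals of 1305 and 862.0 against 905.1 and 1284, which overlapped (log2 fold change -0.02, adjusted p = 0.986). The groups were apart on the first of these only.

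The gene obst-E gave opposite signs on its probe sets. On 142136_at it read 123.3 and 116.5 against 160.3 and 133.1 (log2 fold change -0.29, adjusted p = 0.627), and on 151477_at 69.3 and 63.5 against 43.6 and 61.9 (log2 fold change 0.35, adjusted p = 0.619). The groups were separate on both, in opposite directions, so no direction is given for the gene. Peritrophin-A (153977_at) read 694.3 and 346.8 against 472.0 and 538.5, and both controls lay between the knockdown arrays (log2 fold change -0.04, adjusted p = 0.978). For obst-B and Peritrophin-15a the log2 fold changes were 0.25 and 0.34 (adjusted p = 0.632 and 0.652).

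The chitinases held both the largest higher and the largest lower signals among these genes. Cht8 (147597_at) belongs to a branch of the family whose members in other insects act in the gut. It had signals of 532.1 and 995.9 in the knockdown and 55.9 and 228.9 in controls. The lower knockdown signal was above the higher control signal, but the controls differed 4.09-fold and the knockdown arrays 1.87-fold from each other. Replicate 2 was the brighter array in both groups. The difference was 6.43-fold (log2 fold change 2.69, SE 0.63, 95% interval 1.19 to 4.19, unadjusted p = 0.00390, adjusted p = 0.142). Without control replicate 1, the dimmest array, the log2 fold change was 1.67 (adjusted p = 0.436), and without control replicate 2 it was 3.70 (adjusted p = 0.0644). Without knockdown replicate 1 or 2 it was 3.14 and 2.23 (adjusted p = 2.37e-16 and 8.45e-08, with infinite prior degrees of freedom).

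Cht9 (141389_at) lies beside Cht4, Cht12 and Cht8 in a cluster on chromosome arm 2R, in which no other protein-coding gene lies between neighbours. It was dim, with signals of 46.6 and 39.0 in the knockdown and 14.96 and 10.95 in controls, a 3.33-fold difference (log2 fold change 1.73, SE 0.50, adjusted p = 0.224). Both controls were below the 40th percentile of their arrays, and Cht9 was tested through its knockdown arrays alone. It was the only chitin probe set of which this held. After adding 32 to the signals it was 0.73 on the log2 scale. Cht4 (147598_at) of the same cluster had signals of 21.8 and 12.1 against 18.2 and 12.6, which overlapped, and was too dim to be tested.

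Cht10, a large chitinase needed for moulting in the beetle Tribolium, had lower signals in the knockdown on all 3 of its probe sets. Probe set 143961_at read 85.7 and 131.3 in the knockdown and 157.2 and 275.0 in controls (log2 fold change -0.97, SE 0.35, adjusted p = 0.318). Probe set 141373_at read 191.1 and 236.2 against 288.8 and 398.8 (log2 fold change -0.68, SE 0.26, adjusted p = 0.348). The groups did not overlap on these or on 143960_at, which read 84.0 and 99.7 against 110.4 and 139.9 (log2 fold change -0.44, SE 0.25, adjusted p = 0.488). On all 3, replicate 2 was brighter than replicate 1 in both groups. Without knockdown replicate 2 the log2 fold change on 143961_at was -1.28 (adjusted p = 0.0192), and without control replicate 2 it was -0.57 (adjusted p = 0.502).

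**Figure D4:**
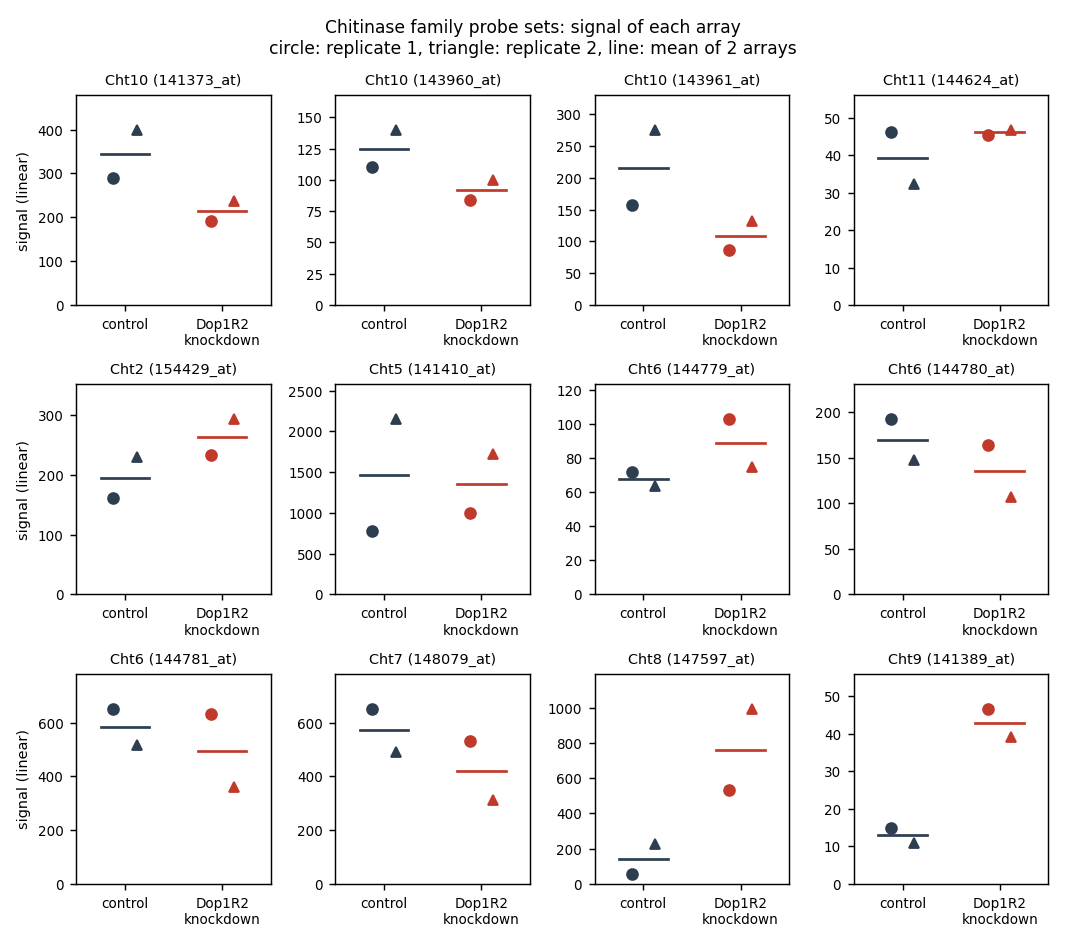
Linear signal (vertical axis, own scale from 0 in each panel) of each array for the 12 tested chitinase probe sets, with controls at left and knockdown at right, circles for replicate 1, triangles for replicate 2 and a line at the mean of 2 arrays. Cht8 and Cht9 lie higher in the knockdown, the 3 panels of Cht10 lie lower, and in Cht5 the replicates of a group are further apart than the groups.

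Cht5, whose counterparts in other insects digest old cuticle at the moult, had signals of 995.2 and 1722 in the knockdown and 781.6 and 2147 in controls. The knockdown signals lay between those of the controls, which differed 2.75-fold, and the log2 fold change of 0.02 had a wide interval (-1.12 to 1.15, adjusted p = 0.996). A difference of 2-fold in either direction lies within it. Cht7 read 529.5 and 313.0 against 651.1 and 489.8 and overlapped (log2 fold change -0.47, adjusted p = 0.549). Cht6 gave log2 fold changes of 0.38, -0.35 and -0.29 on its 3 probe sets, which differ in sign, so no direction is given for it. Cht2 and Cht11 had log2 fold changes of 0.44 and 0.26 (adjusted p = 0.520 and 0.767). Over the 12 tested probe sets of the family, 6 lay above 0 and 6 below, with a median of -0.13.

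The imaginal disc growth factors (Idgf) are secreted relatives of the chitinases that have lost the catalytic activity. Of 5 tested genes, 3 lay above 0 and 2 below, with log2 fold changes from -0.28 (Idgf5) to 0.27 (Idgf4). Idgf4 (144143_at) read 1006 and 1159 in the knockdown and 947.0 and 846.6 in controls, and it was the only one of the 5 whose groups did not overlap (adjusted p = 0.591). Idgf2 and Idgf3, neighbours of Idgf1 on chromosome arm 2L, had log2 fold changes of 0.20 and 0.16, and Idgf6 one of -0.04. Idgf1 (152721_at) read 20.2 and 21.0 against 7.62 and 9.35, under the 40th percentile of every array, and was not tested.

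In all, 8 genes with 1 probe set each were under that percentile on all 4 arrays and were not tested, with signals from 0.407 to 22.8. They are Cda9, Peritrophin-15b, obst-F, obst-G, obst-H, obst-J, Cht4 and Idgf1. The groups of obst-H did not overlap (7.97 and 7.23 in the knockdown, 0.816 and 0.408 in controls), but all 4 signals were under the 20th percentile of their arrays, and no fold is given. Without the filter, obst-H had an adjusted p of 0.123 and Idgf1 one of 0.413.

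**Figure D5:**
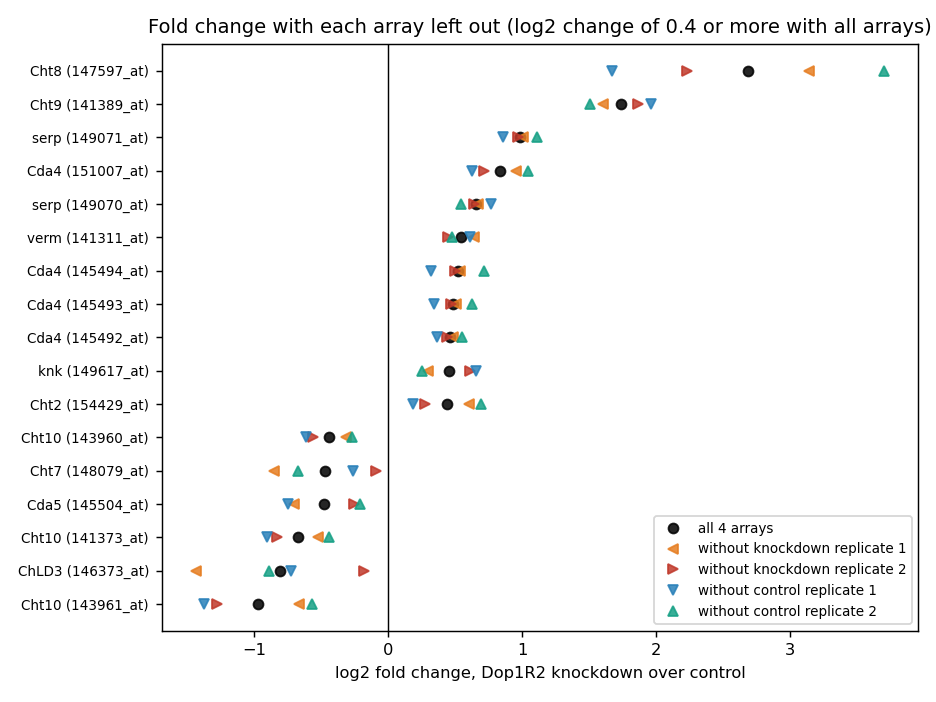
Log2 fold change of knockdown over control (horizontal axis) for each chitin probe set whose difference was 0.4 or more in size (rows), with all 4 arrays (black circle) and with each array left out in turn (coloured triangles). Every row stays on 1 side of 0, which is bound to hold where the groups did not overlap, and Cht8 spans 1.67 to 3.70.

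Other genes of chitin metabolism were followed as lists outside these families. Of 6 tested genes of the hexosamine route to UDP-N-acetylglucosamine and of chitin synthase itself, 0 passed. Pgi, which makes the fructose phosphate from which the route starts, had signals of 946.0 and 941.7 in the knockdown and 532.1 and 433.3 in controls (log2 fold change 0.97, adjusted p = 0.104). Gnpnat, which adds the acetyl group on that route, read 67.6 and 54.7 against 103.3 and 80.8 (log2 fold change -0.59, adjusted p = 0.393), and Nagk, which returns N-acetylglucosamine to it, 217.4 and 156.3 against 260.9 and 268.0 (log2 fold change -0.52, adjusted p = 0.431). Pgi was higher and Gnpnat and Nagk were lower on both knockdown arrays than on both controls. Chs2, the chitin synthase of the gut, read 72.6 and 99.0 against 40.2 and 82.7 and overlapped (log2 fold change 0.56, adjusted p = 0.564). Of 2 tested hexosaminidases, which finish the digestion of chitin, 0 passed, and Hexo2 was at -0.62 on the log2 scale (adjusted p = 0.377). The chitin deposition genes exp and reb (expansion and rebuff) were dim and neither passed (adjusted p = 0.460 and 0.305). For exp the signals were 33.1 and 7.44 against 47.0 and 36.4, with 1 knockdown array under the 20th percentile. For reb they were 43.4 and 37.6 against 6.57 and 18.0, so that reb was tested through its knockdown arrays alone and 1 control was under the 20th percentile. No fold is given for either. Of 7 tested genes of the septate junctions, which tracheal cells need to secrete serp and verm, 0 passed, the median log2 fold change was -0.35, and cora had the largest difference (log2 fold change -0.75, adjusted p = 0.241).

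Of 30 mucins and peritrophin-like genes, 24 have a probe set of their own, 6 were bright enough to be tested, and 1 of these passed. It passed as higher, where the share over all tested probe sets was 1.38%. CG13075 rose from signals of 13.6 and 8.07 in controls to 60.1 and 107.6 in the knockdown (log2 fold change 2.94, SE 0.49, adjusted p = 0.0407). Both controls were below the 40th percentile of their arrays and 1 of them was under the 20th, so CG13075 was tested through its knockdown arrays alone, and with dim probe sets kept it did not pass (adjusted p = 0.0696). CG10140, tested in the same way, read 69.2 and 104.5 in the knockdown and 24.0 and 25.0 in controls and did not pass (log2 fold change 1.80, adjusted p = 0.0504). In neither did the groups overlap. Both are among the genes that the study itself called on these arrays, so their direction is not independent evidence. Mur18B, above the 40th percentile on every array, read 75.5 and 197.5 against 40.9 and 56.9 (log2 fold change 1.34, adjusted p = 0.293). CG7017 was lower on both knockdown arrays than on both controls (log2 fold change -0.39, adjusted p = 0.678). Members too dim to be tested differed in both directions, such as Muc11A (higher) and CG7252 (lower).

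Some genes that mark the stage differed between the groups. Of 10 tested genes typical of prepupae and early pupae, 3 passed, all higher in the knockdown. The share over all tested probe sets that passed as higher was 1.38%. The 3 were Edg91, a cuticle protein (log2 fold change 2.07, adjusted p = 0.0226), ImpL2, a secreted binder of insulin-like peptides (1.89, adjusted p = 0.0220) and Pcp, a pupal cuticle protein (1.87, adjusted p = 0.0407). With dim probe sets kept, ImpL2 passed (adjusted p = 0.0413), and Edg91 and Pcp did not (adjusted p = 0.0532 and 0.0740). The study itself called Edg91 and Pcp on these arrays, so their direction here is not independent evidence. The median of the 10 was 1.29, and ImpE2 and 1 other lay below 0. The value of ftz-f1 (log2 fold change 1.025) enters that median. It was tested through its knockdown arrays alone, since both controls were below the 40th percentile. Of the probe sets of this list too dim to be tested, both of ImpE1 were lower on both knockdown arrays than on both controls. In the same comparison 1 of br and 1 of ImpE3 were higher, and the rest overlapped. The summed signal of all 18 probe sets of this list, dim ones included, was 3380 and 4830 in the knockdown and 3350 and 4530 in controls, which overlap. ImpE2, the brightest of them, read 1526 and 1913 in the knockdown and 2425 and 3558 in controls, the reverse of most tested members. The sum therefore does not stand for the list. Of the larval glue genes, Sgs3, Sgs5 and Sgs7 had signals under 7 on every array, and Sgs8 had signals of 52.5 and 53.4 in the knockdown and 52.9 and 52.8 in controls (log2 fold change 0.0035, adjusted p = 0.998). The part of a shift in stage in the values of the chitin genes was not tested.

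Markers of fat body (Lsp2 and Fbp1) and muscle (Mlc2) were bright on every array, and elav, a neuronal marker, was below the limit for testing. In the gut, haemocyte, fat body, muscle and neuron lists, 0 genes passed. The summed signal of the gut list was 379 and 336 in the knockdown and 489 and 474 in controls, and that of the haemocyte list 350 and 330 against 485 and 552. A single bright gene was the largest term of each of these sums. In the gut list LManII read 240.1 and 196.3 against 295.9 and 348.2, while the groups of the other tested members, Jon65Aiii and lambdaTry, overlapped. Of its members too dim to be tested, betaTry, thetaTry and Mal-A1 were also lower on both knockdown arrays than on both controls, and Jon99Ci overlapped. In the haemocyte list Pxn read 187.5 and 169.8 against 359.5 and 380.0, while NimC1 and 1 of the probe sets of PPO2 were higher on both knockdown arrays than on both controls. Their part in the values of the chitin genes was not tested. In RNA of whole animals, fewer cells of a type and less RNA per cell cannot be told apart. The arrays had median signals of 43.4 and 45.0 in the knockdown and 43.4 and 44.5 in controls. The ratio of 3' to 5' actin control probes was 2.07 on both replicate 1 arrays and 1.61 on both replicate 2 arrays, so it differed by replicate number and not by group. Those of Gapdh (3.88 and 3.90 in the knockdown, 4.61 and 3.97 in controls) and eIF-4a (3.98 and 2.82 against 4.59 and 4.24) were lower on both knockdown arrays than on both controls, and the part of this in the chitin values was not tested. For the 39 chitin probe sets the brighter array of a group exceeded the dimmer by a median of 1.26-fold in the knockdown and 1.22-fold in controls, close to the 1.22 and 1.23 over all tested probe sets.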

How the data were processed

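The authors hybridized RNA of 2 Dop1R2 knockdown and 2 control pools to Affymetrix DrosGenome1 arrays and obtained signals with Microarray Suite (the submitters' processing notes name MAS5). The deposited values are linear intensities, 1 for each probe set and array, and every array has the same trimmed mean (100.02). The table holds 14010 probe sets, of which 44 controls of the array maker were left out. Detection calls were not used here. Groups and replicate numbers came from the sample labels, which call the replicates biological.

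Signals were log2 transformed without an offset. Probe sets that reached the 40th percentile of their array on at least 2 arrays were kept (8749 of 13966, 62.6%). Groups were compared with limma 3.58.1 under R 4.3.3 (lmFit, then eBayes with a mean-variance trend, 2 residual and 4.95 prior degrees of freedom, two-sided), with Benjamini-Hochberg adjustment over all kept probe sets and a threshold of 0.05. In simulated data the fit found 14.3% of differences of 1 on the log2 scale (48 of 335), 88.7% of those of 2 and 97% of those of 3. A 2-fold difference was thus mostly missed there. Of the calls in these data 6.99% were false, above the threshold of 0.05. The smallest two-sided p of an exact permutation test with this many arrays is 0.333. Counts and plots were made in Python 3.11.15 (pandas 2.3.3, numpy 2.4.6, matplotlib 3.10.9). The precision is limited by the number of arrays.

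Probe sets were named through the platform annotation, in which 12442 carry 1 gene, 327 several and 1197 none. All 36 genes matched the RefSeq annotation of Release 6, used only for names and neighbours. A signal depends on its probes, so signals of different probe sets do not compare the levels of their genes. The sums of the stage and tissue lists add them all the same, and bright probe sets weigh most there. Given in full were members that passed, those with a log2 fold change of at least 1 in size and all members of synthesis, fibre organisation and deacetylation. Of the other lists, genes that passed were named, and otherwise at most 2 with the largest change. Cht10, obst-A, obst-E, Gasp, Peritrophin-A, Cht4, Cht5, Cht7, Idgf4, the dim genes and, of the other lists, Nagk, Chs2, CG10140, Mur18B, CG7017, Muc11A, CG7252 and the stage and tissue genes beyond the rule were described after their values were seen. The members and lists were chosen with earlier results of these data known. The alternatives were other filters, a floor, an added constant, quantile and median normalization, a fit without a trend, the methods' t-test, a replicate block and each array left out.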

Additional observations from a re-analysis of the deposited data

How the results depend on the processing

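No chitin probe set passed when dim probe sets were kept, at the 60th percentile, with a floor at the 20th percentile, with 32 added, after quantile or median normalization, without a trend, or in the methods' t-test after Benjamini-Hochberg adjustment. Unadjusted, that t-test gave 5 higher and 0 lower. Over all probe sets, no filter gave 75 higher and 3 lower in place of 121 and 9, and the t-test gave 467 and 323 unadjusted and 0 and 0 adjusted. In no setting other than leaving out an array did a chitin probe set change sign. The median of all tested probe sets lay between -0.08 and -0.01 in every setting.

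With 1 array left out, a lone array is assumed to vary like the others. The chitin probe sets passing as higher then numbered 0 to 4 (4 without knockdown replicate 1, namely both of serp, verm and Cht8, and 2 without knockdown replicate 2) and those passing as lower 0 to 1 (ChLD3 without knockdown replicate 1, adjusted p = 0.00255, and Cht10 without knockdown replicate 2). Over all probe sets 27 to 357 were higher and 0 to 295 lower. The sign, which cannot turn where the groups do not overlap, held for 28 probe sets and turned in 11, all with small differences. Their log2 fold changes spanned -0.15 to 0.40 for kkv, -0.23 to 0.076 for nes, -0.60 to 0.14 for Cda5 (145503_at), -0.053 to 0.31 for Gasp, -0.54 to 0.46 for Peritrophin-A, -0.32 to 0.28 for obst-A (142891_at), -0.71 to 0.74 for Cht5, -0.69 to 0.12 for Cht6 (144781_at), -0.065 to 0.47 for Idgf2, -0.79 to 0.23 for Idgf5 and -0.41 to 0.33 for Idgf6.

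Nothing in the labels ties a replicate number to a common batch, and deviations of same-numbered arrays from their group means correlated at 0.151, with 2 pairs, while the actin 3' to 5' ratios were alike within a number (2.07 and 2.07, 1.61 and 1.61). The study speaks of independent experiments without tying arrays to them. Whether the numbers pair the arrays was therefore not settled, and they were not used as pairs. With the number as a replicate block, 1 chitin probe set passed as higher (Cht8, adjusted p = 0.0234) and 0 as lower, and 131 and 10 did over all probe sets.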
